A study of Homo sapiens with 4 samples.

Results

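The 7 genes CRACR2B, CRACR2A, STIM1, STIM2, ORAI1, ORAI2 and ORAI3, the core of store-operated calcium entry, were examined on bead arrays in 4 stable lines derived from HEK293, a human embryonic kidney cell line. They were found by the symbol or an older synonym in the platform annotation (CRACR2B as EFCAB4A, CRACR2A as EFCAB4B, ORAI1 as TMEM142A). They are 7 of the 19304 genes named on the array, each read by 1 probe, and 6 of them were among the 11949 genes detected well enough to be tested. The low CRACR2B signal of the AIRE1 and AIRE2 lines led to the choice of this group of genes, so the differences of CRACR2B between those lines and the control are given as a description, with no test.

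The control line, NC, expressed yellow fluorescent protein (YFP) from the cytomegalovirus immediate-early promoter. AIRE1 and AIRE2 were different clone-derived lines that expressed the autoimmune regulator AIRE from the same promoter. AIRE-D312A expressed, again from that promoter, AIRE with the D312A mutation in its first PHD finger, the domain known for reading the unmodified tail of histone H3. AIRE is a nuclear protein known for switching on tissue-restricted genes in medullary thymic epithelial cells. Per the labels, 3 independent experiments were run with each line, so 12 arrays were read. Since each group is 1 stable line, the p-values reflect how far experiments on the same line spread, and the transgene cannot be told apart from any other difference between the lines. The arrays read bulk RNA, so fewer cells with a transcript and less transcript per cell cannot be told apart.

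The arrays had mean intensities of 245.6 to 324.3, and their detected probes (detection p under 0.01) numbered 15823 to 17288 of 48701. The AIRE probe was not detected on the 3 NC arrays (4.36 to 4.55 on the normalised log2 scale). In replicates 1, 2 and 3 it read 9.03, 8.66 and 9.01 (AIRE1), 8.70, 8.05 and 8.78 (AIRE2), and 8.24, 8.25 and 8.44 (AIRE-D312A). A further AIRE probe stayed under the detection limit on all 12. The HEK293 markers EYA1, LHX1, NEFL, NEFM, VIM, KRT8 and KRT18 were detected on all 12 arrays, while PAX2 was not detected on any. Of 6 markers of other cell types on the array, none was detected on all arrays, and VWF alone was detected on some, 6 of the 12. The replicate 2 arrays stood apart from the others along the first principal component, which held 39.3% of the variance.

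Store-operated calcium entry refills the endoplasmic reticulum after its calcium has been released. STIM1 and STIM2 span the membrane of the endoplasmic reticulum, sense the loss of calcium with an EF hand in its lumen, and move to junctions with the plasma membrane. There they open channels built from ORAI1, ORAI2 or ORAI3. CRACR2A and CRACR2B are cytosolic EF-hand proteins that bind ORAI1 and steady the STIM1 and ORAI1 complex, a role described in T cells. In many cells the calcium that enters activates calmodulin and calcineurin, which send the transcription factors NFAT to the nucleus.

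CRACR2B had a lower signal in each of the 3 AIRE lines than in NC. In replicates 1, 2 and 3, its normalised log2 signal was 9.02, 8.73 and 9.04 in NC. It was 7.07, 6.93 and 7.43 in AIRE1, and 7.45, 6.44 and 7.19 in AIRE2. In AIRE-D312A the 3 arrays read 7.43, 7.29 and 7.49. Thus all 9 arrays of the AIRE lines lay below the 3 NC arrays, and the AIRE lines overlapped each other. The deposited intensities behind these values averaged 505.4 ± 87.5 (NC), 193.5 ± 28.4 (AIRE1), 178.3 ± 55.3 (AIRE2) and 209.5 ± 25.2 (AIRE-D312A) (SD, n = 3). The probe was detected on all 12 arrays, where the detection limit lay between 66.3 and 72.1, and its dimmest array, replicate 2 of AIRE2, read 117.5.

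On the log2 scale the mean of CRACR2B was 8.93 ± 0.17 in NC, 7.41 ± 0.10 in AIRE-D312A, 7.14 ± 0.26 in AIRE1 and 7.03 ± 0.52 in AIRE2 (SD, n = 3). As a description, AIRE1 minus NC was -1.78 ± 0.22 (SE), a 3.44-fold lower signal, and AIRE2 minus NC was -1.90 ± 0.22, a 3.74-fold lower signal. Within replicates 1, 2 and 3 the difference was -1.95, -1.80 and -1.61 for AIRE1, and -1.57, -2.29 and -1.85 for AIRE2. Every experiment thus showed the lower signal. In the authors' deposited table, which holds 1 value per line and gives no weight to replicate 2, CRACR2B stood at 550.9 (NC), 116.9 (AIRE1), 133.1 (AIRE2) and 135.0 (AIRE-D312A).

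The mutant line was not used to choose the genes, but its comparison shares the NC arrays that were. That choice leans towards high NC values, so the p-values below are not an independent test. In AIRE-D312A, CRACR2B fell by 1.52 ± 0.22 (SE) on the log2 scale (95% interval of the difference -2.01 to -1.04), a 2.87-fold lower signal (limma, adjusted p = 0.00246). The difference was -1.59, -1.44 and -1.54 within replicates 1, 2 and 3, below 0 in 3 of 3. Leaving out any 1 of the 12 arrays gave -1.62 to -1.46, with adjusted p between 0.000116 and 0.0152, and leaving out all replicate 2 arrays gave -1.54. The background of AIRE-D312A replicate 3, here and in every value of that line, was predicted because its detection column could not be used. Of all 11949 genes tested, 1.32% were called lower in AIRE-D312A than in NC at an adjusted p under 0.05 in the limma fit.

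**Figure D1:**
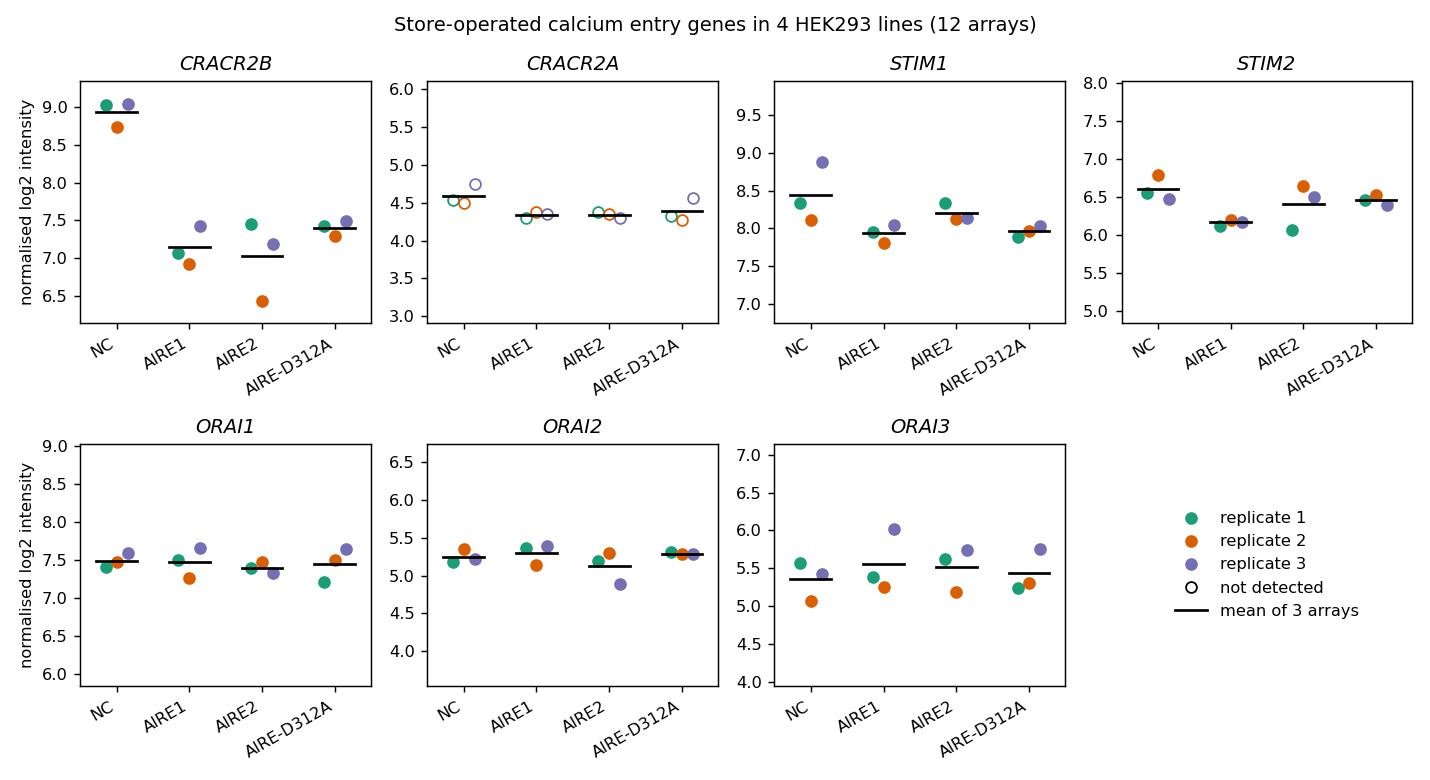
Normalised log2 signal (vertical axis, the same span in every panel) of the 7 store-operated calcium entry genes on each of the 12 arrays, grouped by line, with points for arrays and a bar for the mean of each line. In the CRACR2B panel the 3 NC arrays lie at 8.73 to 9.04 and the 9 arrays of the AIRE lines at 6.44 to 7.49, whereas the line means of ORAI1 span 7.40 to 7.49.

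The order of the mean CRACR2B levels was NC, AIRE-D312A, AIRE1 and AIRE2, and the arrays of the AIRE lines overlapped. The AIRE1 and AIRE2 arrays led to the choice of the gene, so these differences too are a description. AIRE1 minus AIRE-D312A was -0.26 on the log2 scale (95% interval -0.75 to 0.22). AIRE2 minus AIRE-D312A was -0.38 (-0.87 to 0.11), and AIRE1 minus AIRE2 was 0.12 (-0.37 to 0.60), which turned to -0.07 without the replicate 2 arrays. None of the 6 measured genes was called in any of these 3 comparisons, in which 0.778% of all tested genes were called lower and 1.56% higher (AIRE1 minus AIRE-D312A), 0.879% and 1.34% (AIRE2 minus AIRE-D312A), and 1.02% and 1.28% (AIRE1 minus AIRE2).

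CRACR2A, the paralogue of CRACR2B that is prominent in T cells, was not detected on any of the 12 arrays. Its deposited intensity lay between 50.2 and 65.3, under the detection limit of every array. No difference between lines is therefore given for it.

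Of the calcium sensors, STIM1 and STIM2 had lower means in each AIRE line than in NC, and neither passed the test in the fit without a replicate term. The STIM1 signal in replicates 1, 2 and 3 was 8.34, 8.11 and 8.88 in NC. It was 7.95, 7.81 and 8.04 in AIRE1, and 7.89, 7.97 and 8.03 in AIRE-D312A, so neither of these lines overlapped NC. In AIRE2 it was 8.34, 8.12 and 8.14, within the range of NC. The replicate 3 array of NC was the highest of the 12.

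For STIM1, AIRE1 minus NC was -0.51 ± 0.16 (SE) on the log2 scale, a 1.42-fold lower signal (limma, adjusted p = 0.0898). AIRE-D312A minus NC was -0.48 ± 0.16 (limma, adjusted p = 0.158). AIRE2 minus NC was -0.24 ± 0.16 (95% interval -0.60 to 0.12, limma adjusted p = 0.455). With the replicate number as a block, which the arrays bear out as a pairing, STIM1 was called lower in AIRE1 (limma, adjusted p = 0.0162) and in AIRE-D312A (limma, adjusted p = 0.029). The differences within replicates 1, 2 and 3 were -0.39, -0.30 and -0.84 for AIRE1, and -0.45, -0.14 and -0.85 for AIRE-D312A. For AIRE2 they were 0.01, 0.01 and -0.74, so its lower mean came from replicate 3. Single arrays of NC moved these values both ways. Without NC replicate 3, AIRE1 minus NC was -0.29 (limma, adjusted p = 0.241) and AIRE-D312A minus NC was -0.26 (limma, adjusted p = 0.421). Without NC replicate 2, AIRE1 minus NC was -0.67 (limma, adjusted p = 0.0204) and AIRE-D312A minus NC was -0.64 (limma, adjusted p = 0.0404).

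STIM2, the sensor that responds to small falls of stored calcium, read 6.55, 6.79 and 6.47 in NC and 6.12, 6.20 and 6.17 in AIRE1 (replicates 1, 2 and 3, normalised log2). These lines did not overlap. It read 6.07, 6.64 and 6.50 in AIRE2, and 6.46, 6.53 and 6.40 in AIRE-D312A, both overlapping NC. AIRE1 minus NC was -0.44 ± 0.14 (SE), a 1.36-fold lower signal (limma, adjusted p = 0.0788), and it was called lower with the replicate block (limma, adjusted p = 0.0106). Within replicates 1, 2 and 3 it was -0.42, -0.60 and -0.30. AIRE2 minus NC was -0.20 (95% interval -0.50 to 0.10, limma adjusted p = 0.46), and AIRE-D312A minus NC was -0.14 (-0.44 to 0.16, limma adjusted p = 0.747). The AIRE1 call was also made without replicate 1 of AIRE2 (limma, adjusted p = 0.021) or without its replicate 2 (limma, adjusted p = 0.0429). Scaling the arrays by their medians moved it to -0.22 (limma, adjusted p = 0.573).

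The promoters of the sensor genes are shown because both genes were lower in AIRE1 with the replicate block. RefSeq start sites were matched for 5 of the 7 genes, not for CRACR2B or ORAI1. Each window runs from 250 bases before to 50 bases after the start on GRCh38.p14, on the strand of the gene, and CG dinucleotides are in capitals. The STIM1 window lies at chr11:3855414-3855713 and the STIM2 window at chr4:26860591-26860890, both on the plus strand.
STIM1: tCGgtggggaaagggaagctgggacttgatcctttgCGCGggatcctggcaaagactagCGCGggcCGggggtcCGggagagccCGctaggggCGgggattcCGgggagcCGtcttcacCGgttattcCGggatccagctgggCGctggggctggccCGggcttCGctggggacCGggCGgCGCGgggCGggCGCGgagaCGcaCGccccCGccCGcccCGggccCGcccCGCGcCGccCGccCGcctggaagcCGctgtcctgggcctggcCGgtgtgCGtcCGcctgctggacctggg
STIM2: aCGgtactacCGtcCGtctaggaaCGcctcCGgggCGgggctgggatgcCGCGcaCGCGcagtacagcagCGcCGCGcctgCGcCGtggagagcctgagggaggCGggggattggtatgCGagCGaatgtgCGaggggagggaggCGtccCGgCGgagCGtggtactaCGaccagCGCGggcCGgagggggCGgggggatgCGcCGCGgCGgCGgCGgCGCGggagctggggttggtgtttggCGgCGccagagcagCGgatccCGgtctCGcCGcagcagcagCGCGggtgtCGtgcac
The STIM1 window holds 38 CG dinucleotides, a count that 9.9% of 35116 RefSeq promoters reach, and the STIM2 window holds 45, which 3.5% reach. The median promoter holds 14, and 96.0% hold at least 1. RefSeq lists 4 starts for STIM1, whose windows hold 7 to 40. The core of the NFAT motif, GGAAA, searched on both strands, occurs 1 time in the STIM1 window shown and is not in these letters for STIM2, and 61.2% of all promoters hold it. A CG can share its G with GGAAA.

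The pore subunits showed no called difference between any lines. ORAI1 had means of 7.49 ± 0.09 (NC), 7.47 ± 0.20 (AIRE1), 7.40 ± 0.07 (AIRE2) and 7.45 ± 0.23 (AIRE-D312A) (log2, SD, n = 3). Its 12 arrays ran from 7.21 to 7.66, and all lines overlapped. Against NC the difference of ORAI1 was -0.02 in AIRE1 (95% interval -0.31 to 0.26), -0.10 in AIRE2 (-0.38 to 0.19) and -0.04 in AIRE-D312A (-0.33 to 0.25). Scaling the arrays by their medians turned these to 0.16, 0.00 and 0.05, so no direction is given. The lowest bound of the 3 intervals is -0.38.

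ORAI2 and ORAI3 were dim, with line means of deposited intensity between 75.9 and 92.5 against detection limits of 66.3 to 72.1. Both were detected on all 12 arrays. ORAI2 had log2 means of 5.25 (NC), 5.30 (AIRE1), 5.13 (AIRE2) and 5.29 (AIRE-D312A), with differences from NC of 0.05 (95% interval -0.20 to 0.30), -0.12 (-0.38 to 0.13) and 0.04 (-0.21 to 0.29). ORAI3 had log2 means of 5.36 (NC), 5.56 (AIRE1), 5.51 (AIRE2) and 5.43 (AIRE-D312A), with differences from NC of 0.20 (-0.29 to 0.69), 0.16 (-0.33 to 0.64) and 0.08 (-0.41 to 0.56). The adjusted p for ORAI2 and ORAI3 against NC in the limma fit lay between 0.616 and 0.937. The replicate 3 array of AIRE1, at 6.02, was the highest ORAI3 value.

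Of the 6 measured genes, 1 was called lower and 0 higher in each comparison with NC, and that gene was CRACR2B. Among all tested genes, 3.06% were called lower in AIRE1 and 3.52% in AIRE2, beside 1.32% in AIRE-D312A; the higher calls were 5.21%, 5.93% and 2.64%. Nothing can be read from the AIRE1 and AIRE2 counts, since CRACR2B was chosen on them. The AIRE-D312A count shares the NC arrays of that choice, so it is no independent support. With the replicate block, 3, 1 and 2 of the 6 were called lower in AIRE1, AIRE2 and AIRE-D312A, beside 10.2%, 12.5% and 7.72% of all tested genes. None of the 6 was called higher with the block, beside 12.6%, 14.2% and 8.71% of all tested genes. Among the AIRE lines the block called none of the 6 either way, beside 3.87% of tested genes lower and 5.93% higher (AIRE1 minus AIRE-D312A), 7.50% and 8.15% (AIRE2 minus AIRE-D312A), and 5.84% and 7.51% (AIRE1 minus AIRE2). The median difference of the 6 genes was -0.23, -0.16 and -0.09, against 0.01, 0.00 and 0.00 for all tested genes. CRACR2B is in each of these medians and in each blocked count of lower calls, so they carry the same limit. The other genes called lower with the block were STIM1 and STIM2 in AIRE1 and STIM1 in AIRE-D312A.

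**Figure D2:**
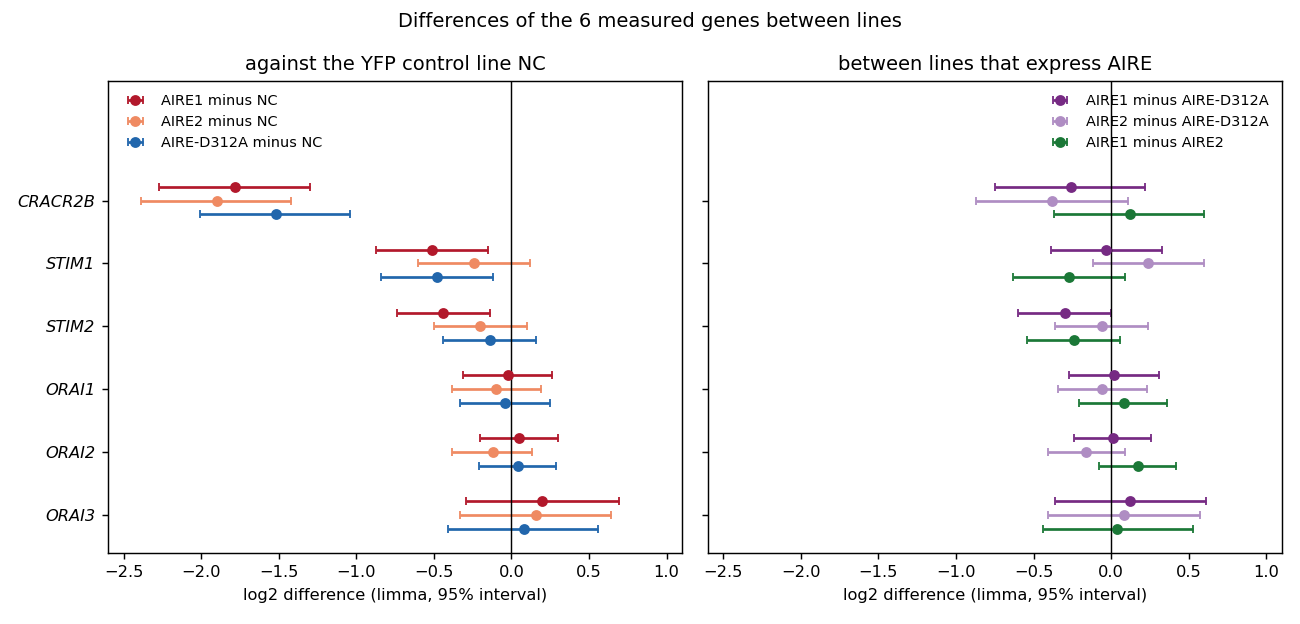
Log2 differences (horizontal axis, points, with 95% intervals from the limma fit) of the 6 measured genes between each AIRE line and NC (left) and among the AIRE lines (right). CRACR2B stands at -1.90 to -1.52 against NC and at -0.38 to 0.12 among the AIRE lines, where its 3 intervals include 0.

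CRACR2B lies on chromosome 11, and its neighbours were read because its lines differed. They were the 6 nearest tested genes on each side in the RefSeq gene order: TALDO1, GATD1, SLC25A22, PIDD1, RPLP2 and PNPLA2, then CD151, POLR2L, TSPAN4, CHID1, AP2A2 and TOLLIP. Of these 12, AIRE1 had 11 with a mean below NC, AIRE2 had 12 and AIRE-D312A had 10. The median differences were -0.31, -0.42 and -0.28, against 0.01, 0.00 and 0.00 for all tested genes. None was called higher, beside 5.21%, 5.93% and 2.64% of all tested genes, shares at which none of 12 says little. The number called lower was 3 (AIRE1), 4 (AIRE2) and 3 (AIRE-D312A), beside 3.06%, 3.52% and 1.32% of all tested genes. Leaving out 1 array gave 1 to 3, 2 to 6 and 0 to 3 in the same order. With the replicate block the number was 7, 8 and 6, beside 10.2%, 12.5% and 7.72% of all tested genes. When arrays were scaled by their medians in place of quantiles, these counts were 0, 1 and 0. No neighbour changed as much as CRACR2B: the lowest of their differences was -0.56 (AIRE1), -0.83 (AIRE2) and -0.85 (AIRE-D312A).

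CD151, which encodes a tetraspanin that partners with integrins, lies next to CRACR2B among the tested genes. Its log2 difference from NC was -0.54 (AIRE1), -0.64 (AIRE2) and -0.49 (AIRE-D312A) (SE 0.12 each, limma adjusted p = 0.0146, 0.00492 and 0.0422). Its call in AIRE-D312A was lost when any of 11 of the 12 arrays was left out (adjusted p up to 0.163), and its AIRE1 call in 2 of 12 such fits. The mean of its probes also lost the AIRE-D312A call (-0.38, limma adjusted p = 0.0577). Median scaling lost the CD151 calls in all 3 lines (-0.40, -0.59 and -0.43, limma adjusted p = 0.236, 0.0677 and 0.365). TSPAN4, another tetraspanin gene, had differences of -0.56, -0.83 and -0.46 in the same order (SE 0.09 each, limma adjusted p = 0.00247, 0.000176 and 0.0168). Its AIRE-D312A call was lost with the mean of its probes (-0.27, limma adjusted p = 0.19) and in 4 of 12 fits without 1 array. Median scaling lost its calls in AIRE-D312A (-0.39, limma adjusted p = 0.416) and AIRE1 (-0.44, limma adjusted p = 0.161). The other calls, named after their values were seen, were AP2A2 in AIRE1 (-0.36), GATD1 (-0.60) and PIDD1 (-0.69) in AIRE2, and PIDD1 in AIRE-D312A (-0.85). Each was lost under median scaling and, in 10, 3, 4 and 5 of 12 fits respectively, without 1 array. The AP2A2 call was also lost with a trended robust variance and without the replicate 2 arrays. STIM1 lies further along chromosome 11, with 30 tested genes between it and CRACR2B. These include the 6 neighbours from CD151 to TOLLIP, so the calls of CD151, TSPAN4 and AP2A2 are counted again here. Of the 30, AIRE1 had 7 called lower, AIRE2 had 4 and AIRE-D312A had 5, and 0 were called higher. The median differences were -0.31, -0.27 and -0.28, against 0.01, 0.00 and 0.00 for all tested genes. Of all tested genes, 3.06%, 3.52% and 1.32% were called lower and 5.21%, 5.93% and 2.64% higher. Whether the position of these genes bears on their signal was not tested.

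**Figure D3:**
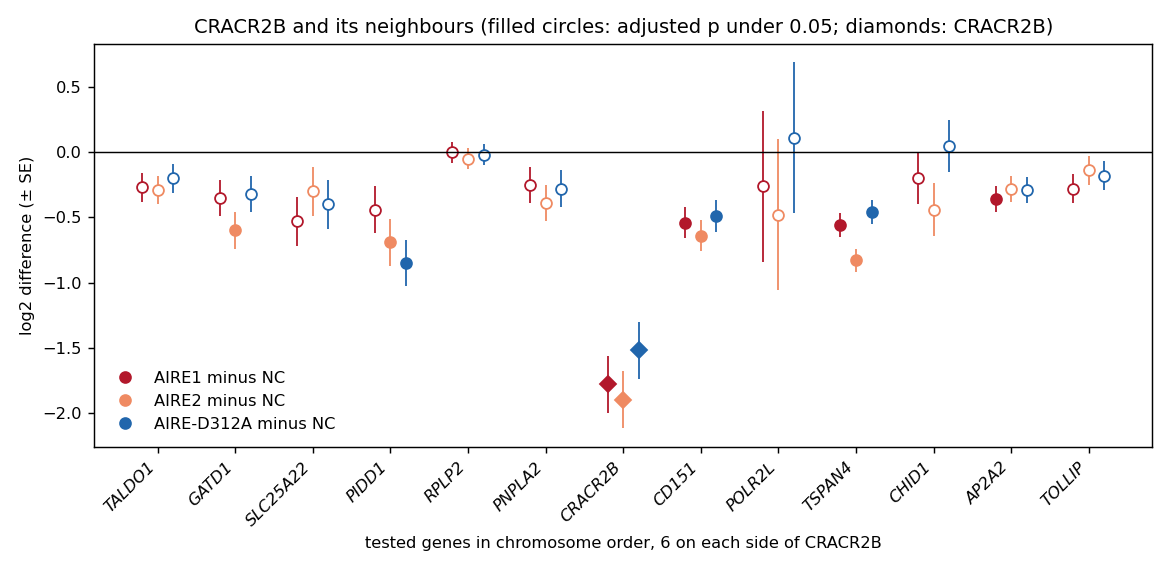
Log2 difference from NC (vertical axis, ± SE) of CRACR2B (diamonds) and the 6 nearest tested genes on each side (circles, filled where the adjusted p is under 0.05), in chromosome order, for AIRE1, AIRE2 and AIRE-D312A. CRACR2B stands at -1.90 to -1.52, and the lowest neighbour value is -0.85 (PIDD1 in AIRE-D312A).

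By Pearson correlation of the normalised log2 values over the 12 arrays, the genes most like CRACR2B were DHRS3 (r = 0.973), EIF3M (0.971), HOXB7 (0.957), SOX8 (0.957) and DLX1 (0.956). These points share 4 lines and 3 experiments, and the value mostly reflects the step between NC and the AIRE lines. Log2 differences from NC in AIRE1, AIRE2 and AIRE-D312A were -1.04, -0.92 and -0.68 for DHRS3, a retinaldehyde reductase, and -1.24, -1.41 and -0.92 for SOX8, a SOX family transcription factor. They were -0.78, -0.80 and -0.58 for DLX1, a homeobox factor. EIF3M, a subunit of a translation initiation factor, and HOXB7, a homeobox factor, showed smaller steps of -0.34 to -0.29. Among the calcium entry genes, r with CRACR2B was 0.664 for STIM1, which ranked at 659 among the tested genes, 0.364 for STIM2, 0.211 for ORAI1, 0.031 for ORAI2 and -0.010 for ORAI3.

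The wider calcium-handling machinery was read through 129 further genes in 9 functional lists, of which 118 were on the array and 79 were measured. Against NC, AIRE1 had 5 of the 79 called higher and 3 lower, AIRE2 had 7 and 1, and AIRE-D312A had 3 and 1. As shares these were 6.33% and 3.80%, 8.86% and 1.27%, and 3.80% and 1.27%, beside 5.21% and 3.06%, 5.93% and 3.52%, and 2.64% and 1.32% of all tested genes. Under the replicate block the counts became 9 and 9, 16 and 6, and 8 and 5. Of all tested genes the block called 12.6% and 10.2%, 14.2% and 12.5%, and 8.71% and 7.72% higher and lower. The median differences of the 79 genes were 0.02, 0.06 and -0.02. Among the genes called without the block, TMEM178A, TRPC6 and SLC8A3 passed the detection filter through AIRE lines alone, which favours a difference from NC. They are in these counts, which therefore support nothing by themselves, and are described below with no test. Genes called only with the block that passed in a like way are marked below.

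Accessory proteins of store-operated entry (10 measured of 16 listed) had 2, 1 and 1 genes called higher in AIRE1, AIRE2 and AIRE-D312A and none lower. Of all tested genes, 5.21%, 5.93% and 2.64% were called higher and 3.06%, 3.52% and 1.32% lower. The AIRE-D312A count, TMEM178A, was lost with median scaling, an offset of 50, no background correction and in 4 of 12 fits without 1 array. TMEM178A, an inhibitor of this entry in mouse osteoclasts that acts on STIM1, was not detected on any NC array and was detected on all arrays of the AIRE lines. Set against the detection limit on the NC arrays, its signal was at least 1.89-fold higher in AIRE1, at least 1.89-fold higher in AIRE2 and at least 1.35-fold higher in AIRE-D312A. CAV1, which encodes the caveolar protein caveolin 1, was called higher in AIRE1 (0.54, limma adjusted p = 0.0468), a call lost in 8 of 12 fits without 1 array. That call was also lost with an offset of 50, no background correction, no detection filter and a trended robust variance. In AIRE-D312A the CAV1 difference was 0.57 (limma, adjusted p = 0.0617, and 0.00449 with the replicate block). CAV1 was named after its values were seen.

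Of 3 measured TRPC channels, which admit calcium after receptor activation, TRPC6 was the gene counted as higher, in both wild-type AIRE lines. It was not detected in NC, was detected on all arrays of AIRE1 and AIRE2 and was detected on 1 of 3 arrays of AIRE-D312A. Against the detection limit on the NC arrays, its signal was higher by at least 1.23-fold (AIRE1) and at least 1.48-fold (AIRE2). The AIRE1 count was lost with no detection filter, with an offset of 50, with no background correction and in 8 of 12 fits without 1 array.

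Phospholipase C and inositol phosphate signalling, which releases calcium from the store, had 18 measured genes of 20. INPP1, which removes a phosphate from inositol phosphates, rose in all 3 AIRE lines. From 8.32 ± 0.17 in NC it stood at 9.05 ± 0.06 (AIRE1), 9.31 ± 0.14 (AIRE2) and 9.12 ± 0.12 (AIRE-D312A) (log2, SD, n = 3), without overlap. The differences of 0.73, 0.99 and 0.80 (SE 0.11) had limma adjusted p of 0.00186, 0.000232 and 0.00219. ITPKA, a kinase of inositol trisphosphate, fell by 0.68 in AIRE2 (limma, adjusted p = 0.00128) and fell by 0.55 in AIRE-D312A (limma, adjusted p = 0.00953). The AIRE-D312A call was lost under median scaling (-0.47, limma adjusted p = 0.231) and without AIRE-D312A replicate 1 (limma, adjusted p = 0.0571). In AIRE1 its difference was 0.21 (adjusted p = 0.26). Its means were 8.17 ± 0.16 (NC), 8.38 ± 0.05 (AIRE1), 7.49 ± 0.06 (AIRE2) and 7.62 ± 0.12 (AIRE-D312A), so AIRE1 and AIRE2 differed in this gene.

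Calcium extrusion and Golgi pumps had 5 measured genes of 9. SLC8A3, a sodium and calcium exchanger, was not detected in NC and was detected on all arrays of the AIRE lines, which put it above the detection limit on the NC arrays at least 1.39-fold (AIRE1), 1.40-fold (AIRE2) and 1.24-fold (AIRE-D312A). The fit counted SLC8A3 as higher in each AIRE line. Its AIRE-D312A count was lost under median scaling, with an offset of 50 and in 5 of 12 fits without 1 array. The single calls in the remaining lists were named after their values were seen. ATP2C1, a Golgi calcium pump, was lower in AIRE1 (-0.35), and ATP2B4, a plasma membrane calcium pump, was higher in AIRE2 (0.56). RCAN1, a calcineurin regulator, was higher in AIRE2 (0.38). Of the EF-hand Rab relatives of CRACR2A, RAB44 was lower in AIRE1 (-0.38) and RASEF higher in AIRE2 (0.43). These 5 calls were lost under median scaling and, in 9, 6, 4, 7 and 4 of 12 fits respectively, without 1 array. With the mean of a gene's probes, ATP2C1 (-0.22), ATP2B4 (0.41) and RCAN1 (0.39) lost their calls (limma, adjusted p = 0.132, 0.232 and 0.0731). The RAB44 call was also lost with an offset of 50, no background correction, a trended robust variance and without the replicate 2 arrays.

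CACNA1H, a voltage-gated calcium channel of the T type, had differences from NC of -0.82 in AIRE1 (limma, adjusted p = 0.0293), -0.57 in AIRE2 (limma, adjusted p = 0.117) and -0.80 in AIRE-D312A (limma, adjusted p = 0.055). The AIRE1 call was lost under median scaling (-0.60, limma adjusted p = 0.166) and in 4 of 12 fits without 1 array. With the replicate block CACNA1H was called lower in each AIRE line. The block called 2 of the 5 measured voltage-gated channel genes lower in each, the other being CACNA1G, also of the T type. Of all tested genes it called 10.2%, 12.5% and 7.72% lower in AIRE1, AIRE2 and AIRE-D312A. CACNA1G passed the detection filter through NC alone, which favours a lower signal in the AIRE lines, so its calls support nothing by themselves.

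The endoplasmic reticulum store list, with calcium pumps and buffers (8 measured of 15), and the mitochondrial calcium uptake list (9 of 11) had 0 calls in either direction against NC. Of all tested genes, 5.21%, 5.93% and 2.64% were called higher and 3.06%, 3.52% and 1.32% lower in AIRE1, AIRE2 and AIRE-D312A. At these shares, 0 calls in lists this short do not show that the lists were unchanged. With the replicate block, limma called 0, 2 and 1 genes of the store list and 2, 1 and 2 of the mitochondrial list higher in AIRE1, AIRE2 and AIRE-D312A, and 0 lower. The calmodulin, calcineurin and NFAT list (15 of 21) had 1 call, RCAN1. With the block the genes higher and lower numbered 1 and 1 (AIRE1), 3 and 2 (AIRE2), and 0 and 0 (AIRE-D312A). The block also gave 2 accessory proteins higher in each AIRE line, and 1 and 3, 3 and 1, and 1 and 2 phospholipase C and inositol phosphate genes higher and lower in AIRE1, AIRE2 and AIRE-D312A. Of all tested genes it called 12.6%, 14.2% and 8.71% higher and 10.2%, 12.5% and 7.72% lower in these lines. HOMER3, counted as higher in AIRE2, passed the detection filter through AIRE lines alone. PLCB2, counted as lower in AIRE-D312A, passed it through AIRE1 and AIRE2 alone. Their calls support nothing by themselves.

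**Figure D4:**
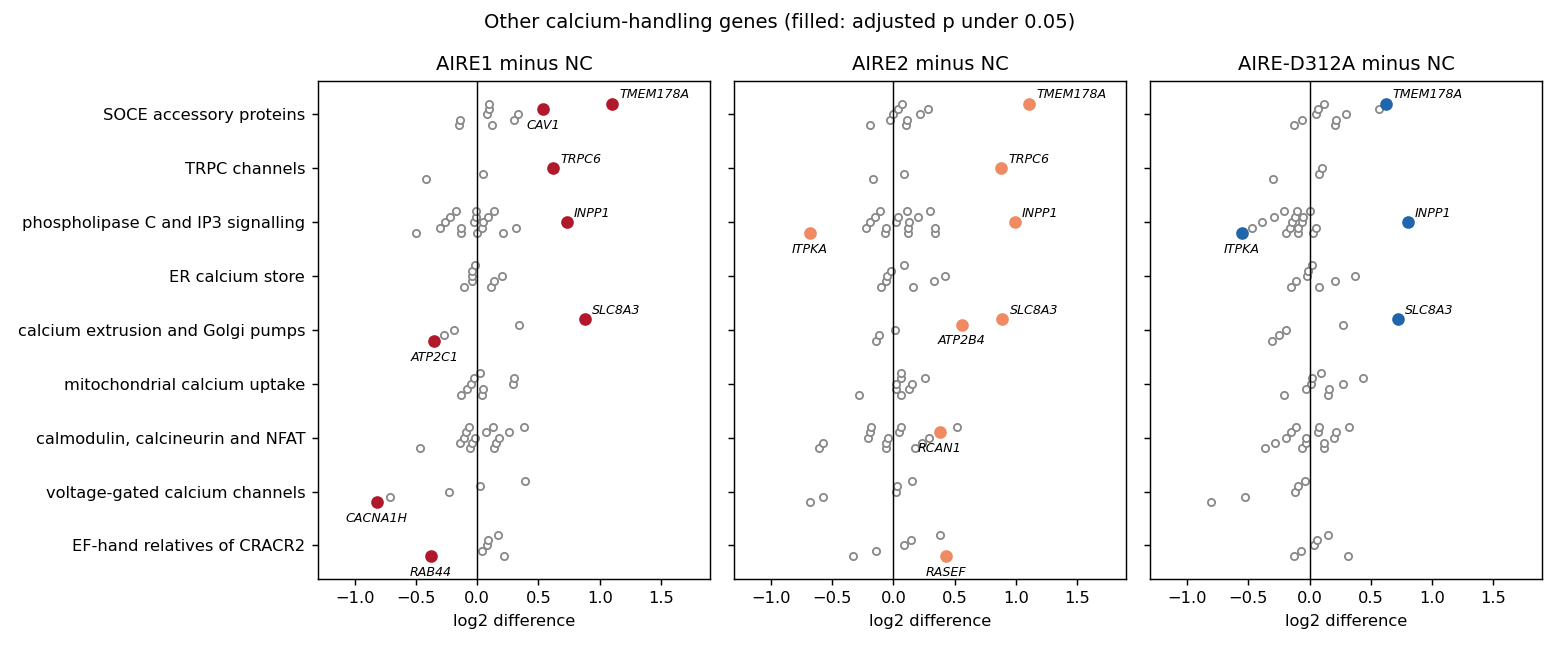
Log2 difference from NC (horizontal axis) of each of the 79 measured calcium-handling genes (points, filled where the adjusted p is under 0.05), by functional list and for AIRE1, AIRE2 and AIRE-D312A. The called genes are 5 higher and 3 lower (AIRE1), 7 and 1 (AIRE2), and 3 and 1 (AIRE-D312A), and the store and mitochondrial lists have none. Of all tested genes, 5.21%, 5.93% and 2.64% were called higher and 3.06%, 3.52% and 1.32% lower.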

How the data were processed

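Each of the 12 deposited files gives, per the file headers, an average linear intensity and a detection p-value for every probe. The submitters' processing notes name BeadStudio 3.1.3.0, and cRNA was made from 250 ng of total RNA, per the labels' protocols. A value table deposited by the authors holds a single intensity for each line and probe. Compared with the arrays, each column was a rescaled mean of replicates 1 and 3 (weight of 0.407 to 0.590 each) with a weight of 0.000 on replicate 2, less a constant. Its column medians were 4.02 (NC), 3.89 (AIRE1), 4.12 (AIRE2) and 3.73 (AIRE-D312A), and how its scale was set is not given in the labels or headers. It served only as an alternative.

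Intensities were corrected by normexp with negative-control parameters inferred from the detection p-values (offset 16), quantile-normalised and log2-transformed (limma 3.58.1, R 4.3.3). The detection p column of AIRE-D312A replicate 3 was 100% equal to that of AIRE1 replicate 3 and was not used; its background and detection limit were estimated through the 40th percentile of its intensities, and on the other 11 arrays this gave the same call for 98.92 to 100.00% of probes. Values of that array rest on this prediction. A probe was kept if its detection p was under 0.01 throughout the 3 arrays of some line (16269 of 48701), and a gene was read by its brightest probe. A single limma model with 1 mean for each line was fitted to the 12 arrays, and p was adjusted by Benjamini-Hochberg over all 11949 genes within each of 6 comparisons, with calls at an adjusted p under 0.05. The fit was tested on simulated data. Precision is limited by having 3 arrays of each line.

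Replicate numbers come from the file names. After subtracting line means, arrays of the same number correlated at 0.332 to 0.848 (6 pairs for each number) and those differing in number and line at -0.743 to 0.529 (36 pairs), and the best match of 12 of 12 arrays carried its own number, so the numbers pair the arrays. The fit with the number as a block is given for the calcium entry genes and where it changed the counts of neighbours and of the main lists. No slide or scan batch was fitted.

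The genes and lists were chosen with earlier results of these data known. Beside the 7 genes, the text names list genes called the same way in AIRE1 and AIRE2 or called in AIRE-D312A against NC, neighbours of CRACR2B called in both AIRE1 and AIRE2, and the 5 genes most correlated with CRACR2B. Where a line was not detected, a fold is a lower bound, set on each dim array against its detection limit or its own value, whichever was higher. Alternatives were median scaling, an offset of 50, no background correction, no detection filter, the mean of a gene's probes, a trended robust variance, the replicate block, the authors' table and each array left out; leaving out all replicate 2 arrays was added after seeing the data. The result of 1 marker gene is not reported here.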

Additional observations from a re-analysis of the deposited data

Results flagged for a closer look

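As a description with no test, TRPC6 had a higher signal in the wild-type AIRE2 line than in the mutant line. AIRE2 minus AIRE-D312A was 0.80 on the log2 scale (SE 0.17). The probe passed the detection filter through AIRE1 and AIRE2 alone and was detected on 1 of 3 AIRE-D312A arrays, so the size of this difference rests on signal at background. The difference was 0.40 with an offset of 50 and 0.38 with no background correction. The fit counted TRPC6 as higher, a count lost under each of these settings and in 7 of 12 fits without 1 array.

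ITPKA separated AIRE1 from the other AIRE lines. AIRE1 minus AIRE-D312A was 0.76 (SE 0.10, limma adjusted p = 0.00192) and AIRE1 minus AIRE2 was 0.89 (SE 0.10, limma adjusted p = 0.000901). Both calls were made in 12 of 12 fits without 1 array, with adjusted p up to 0.0148 and 0.00849. The 2 wild-type lines, which express AIRE from the same promoter, thus went apart in this gene, and what sets them apart was not tested. For AIRE1 minus AIRE-D312A, 1 line each cannot tell the clone from the transgene.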

How the results depend on the processing

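CRACR2B was lower than NC in each AIRE line under every alternative run, over a range of -2.12 to -1.46 without any 1 array. The authors' deposited table moved it to -2.24 (AIRE1) and -2.03 (AIRE-D312A), and AIRE2 minus AIRE-D312A to -0.02. In AIRE1, AIRE2 and AIRE-D312A against NC it put STIM1 at -1.02, -0.63 and -1.04, and STIM2 at -0.71, -0.39 and -0.42. AIRE1 minus AIRE2 turned to -0.07 without the replicate 2 arrays, and ran from -0.18 to 0.33 without 1 array. With the replicate block, 3 measured genes were called lower in AIRE1 and 2 in AIRE-D312A, CRACR2B among them each time. Without the replicate 2 arrays 2 were called in each, CRACR2B and, as the further one, STIM1 (-0.61 and -0.64). Without 1 array these counts ran from 1 to 2. The block changed no other call of the 7 genes.

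Signs of values near 0 turned. Median scaling gave STIM1 AIRE1 minus AIRE-D312A as 0.05, and ORAI1 minus NC as 0.16 (AIRE1), 0.00 (AIRE2) and 0.05 (AIRE-D312A). Without the replicate 2 arrays these were 0.03 for STIM1, 0.07 for ORAI1 in AIRE1 minus NC (0.15 and 0.21 for AIRE1 minus AIRE-D312A and minus AIRE2), and 0.00 for ORAI3 in AIRE-D312A. Without 1 array, STIM1 AIRE1 minus AIRE-D312A ran from -0.08 to 0.03 and STIM2 AIRE2 minus AIRE-D312A from -0.18 to 0.11. ORAI1 ran from -0.11 to 0.08 (AIRE1 minus NC), -0.14 to 0.08 (AIRE-D312A minus NC), -0.11 to 0.12 (AIRE1 minus AIRE-D312A), -0.02 to 0.18 (AIRE1 minus AIRE2) and -0.18 to 0.04 (AIRE2 minus AIRE-D312A). ORAI2 ran from -0.04 to 0.09 (AIRE1 minus AIRE-D312A). ORAI3 ran from -0.03 to 0.34 (AIRE1 minus NC), -0.08 to 0.18 (AIRE-D312A minus NC), -0.11 to 0.28 (AIRE1 minus AIRE-D312A), -0.18 to 0.19 (AIRE1 minus AIRE2) and -0.03 to 0.24 (AIRE2 minus AIRE-D312A). The cause was not tested.

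Median scaling moved the median difference of all genes from NC to 0.14 (AIRE1), 0.06 (AIRE2) and 0.07 (AIRE-D312A). Calls higher and lower went from 622 and 366 to 650 and 107 in AIRE1, from 709 and 421 to 516 and 72 in AIRE2, and from 316 and 158 to 200 and 30 in AIRE-D312A. With the block they were 1507 and 1215, 1692 and 1491, and 1041 and 923, and without the replicate 2 arrays 798 and 602, 1042 and 633, and 495 and 431. The neighbours called lower in AIRE-D312A were 1 with the mean of a gene's probes. Genes close to the detection limit (ORAI2, ORAI3, TRPC6, SLC8A3, TMEM178A) are limited by signal over background.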
